A study of Mus musculus with 90 samples.

Results

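Txnip and 4 arrestin-domain relatives, Arrdc1, Arrdc2, Arrdc3 and Arrdc4, were followed in RAW 264.7 cells, an established mouse macrophage line. The list holds Txnip and 4 alpha-arrestin genes named for their arrestin domain. It was selected on measured values, since Txnip was the gene with the lowest ratio after 1 h of LPS. Of the 5 genes, 3 were measured: Txnip by 2 probes, made for its RefSeq transcript and for a GenBank cDNA, Arrdc1 by 1 probe and Arrdc2 by 1 probe, out of 9760 genes tested. Arrdc3 and Arrdc4 had no probe and were not analysed here. All 3 measured genes passed the filter on missing values.

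The series holds 90 two-colour arrays, each with RNA of treated cells in one dye and RNA of untreated cells, kept in medium for as long, in the other. Treatments were LPS, a bacterial cell wall component, at 100 ng/ml, with lipid binding protein at 100 pM; interferon gamma (IFG), a cytokine, at 5 nM; 2-methyl-thio-ATP (2MA), an ATP analogue, at 500 µM; LPS+IFG; and LPS+2MA. The combinations used these doses, and their labels list no lipid binding protein, so LPS alone and the combinations may differ in that as well. Each treatment was sampled at 1, 2 and 4 h, which gives 15 conditions with 3 replicates each, a replicate being the average over both dye orientations of a numbered set. No genetic change is named for any group. Values are log2 ratios of treated over untreated RNA, given as mean ± SD, and -1 stands for a fall by a factor of 2. Which channel is the numerator is not labelled, and the ratio was taken as Cy5 over Cy3. With it, genes that the treatments are known to raise lay above 0: 2 of 3 listed for LPS were measured and peaked at 3.87 and 4.75, 2 of 3 for IFG at 3.86 and 4.90, and 3 of 3 for 2MA between 2.54 and 4.40. Neither the independence of the 3 replicates nor a sharing of untreated RNA between treatments is stated, so the p-values may measure technical spread only.

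Alpha-arrestins are adaptor proteins with arrestin folds that lead membrane proteins to Nedd4-type ubiquitin ligases and so to endocytosis. Txnip, the thioredoxin-interacting protein, is the family member that also binds thioredoxin, and it is known for holding back glucose uptake by promoting internalization of glucose transporters. Its transcription follows glucose through the Mlx partners MondoA and ChREBP, and its RNA is short-lived. Arrdc1 is known for the release of vesicles from the plasma membrane, and Arrdc2 is a less studied adaptor of the same kind.

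The 250 bases before the annotated start sites of Txnip and Arrdc2 are shown because RNA of both genes was lower with LPS. They come from RefSeq on GRCm38.p6, each 5′ to 3′ on the gene's own strand. In Txnip, which lies on the plus strand at chr3:96557707-96557956, capitals mark CCAAT (on either strand), the reverse complement of TGTTTAC, and CACGAG repeated 5 bases apart. In Arrdc2, which lies on the minus strand at chr8:70839721-70839970, capitals mark CCAAT on the opposite strand.
Txnip: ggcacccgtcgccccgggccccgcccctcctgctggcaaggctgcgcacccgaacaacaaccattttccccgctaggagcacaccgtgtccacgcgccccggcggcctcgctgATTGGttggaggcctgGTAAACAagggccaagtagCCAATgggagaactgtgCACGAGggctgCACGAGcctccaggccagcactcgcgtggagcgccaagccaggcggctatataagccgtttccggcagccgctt
Arrdc2: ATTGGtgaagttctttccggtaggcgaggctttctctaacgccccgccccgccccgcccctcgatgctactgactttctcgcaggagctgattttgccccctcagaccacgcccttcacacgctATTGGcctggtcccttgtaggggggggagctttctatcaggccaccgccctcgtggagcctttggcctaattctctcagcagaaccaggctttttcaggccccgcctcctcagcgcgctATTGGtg
Both windows hold CCAAT, 2 times in Txnip and 3 times in Arrdc2, and so do 33.8% of 32851 promoter windows of this length in the mouse table. TGTTTAC, the forkhead core, was present once in Txnip, 121 bases before the start site on the opposite strand, and in 3.17% of all windows. The CACGAG pair began 85 bases before the Txnip start site and was in 1 of the 32851 windows, that of Txnip. It was searched for after this sequence had been read, and its share is a description of the sequence it was taken from. The letters CACGTG (6.02% of windows), TGANTCA (6.75%) and TGACGTCA (1.55%), the kappaB consensus (7.25%) and the carbohydrate response element consensus (0.0274%) were not found on either strand in these windows of Txnip or Arrdc2. The last was searched as CAYGYG and CRCRTG 5 bases apart, with Y for C or T and R for A or G. The CACGAG pair of Txnip has that spacing but other letters, so this search would miss an element of such letters. Motifs were searched on both strands, and a match is not shown to be a site.

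Txnip RNA was lowest after 1 h of LPS, alone or combined, and nearer the untreated level at 4 h. At 1 h of LPS its replicates were -2.0, -1.57 and -2.20 (mean -1.93 ± 0.32, n = 3), or 26.3% of the untreated level. This value chose the gene, and it is given with no test. All 12 spots, 2 probes on 6 arrays, lay below 0. Just outside the rule stood Sfi1 (-1.73) and then Cnr2 (-1.14), so the step from the second to the third gene was wider than that from Txnip to Sfi1. In this contrast 2.35% of all 11600 features were lower at an adjusted p under 0.05 by limma, the threshold used for every call below, and nothing is read from that share for the members. In a culture, fewer cells that hold an RNA and less of it per cell cannot be told apart.

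**Figure D1:**
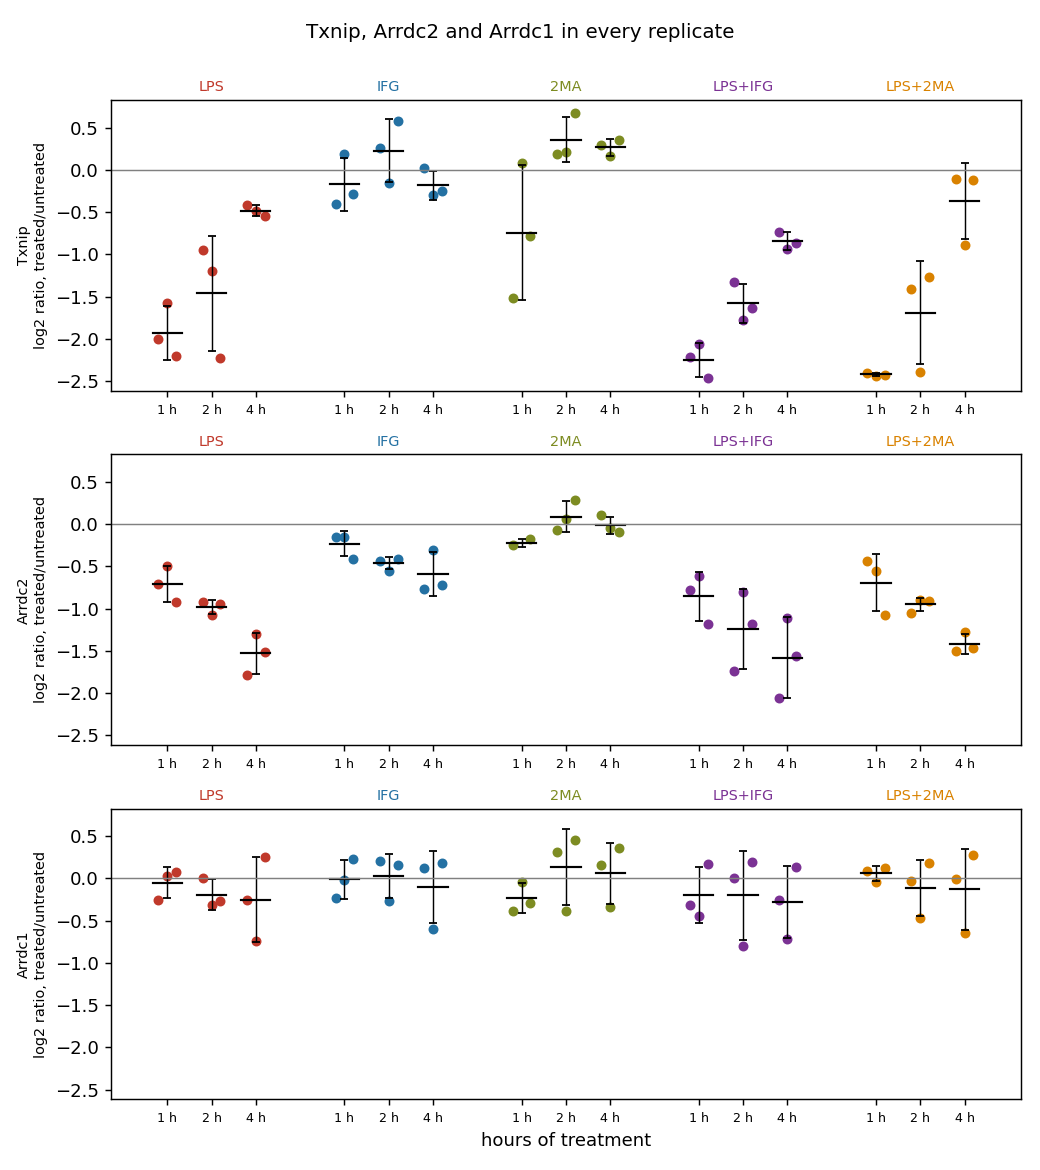
Log2 ratios of Txnip, Arrdc2 and Arrdc1 (y axes, shared scale) by treatment and hours (x axis). Points are replicates, horizontal bars the mean and whiskers 1 SD (n = 3, or 2 for Arrdc2 at 1 h of 2MA). Txnip lies near -2 at 1 h of LPS and of both combinations and nearer 0 at 4 h, Arrdc2 moves away from 0 with time, and Arrdc1 scatters around 0.

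At 2 h of LPS the replicates of Txnip were -0.95, -1.19 and -2.23. The third was far below the others, yet all lay under 0, and the mean of -1.46 ± 0.68 (n = 3) was called lower (limma, adjusted p = 1.58e-06). Txnip ranked 7 from the lowest of the genes there, in a condition in which 7.79% of features were called lower. At 4 h of LPS the replicates were close together, at -0.42, -0.48 and -0.54, and the mean of -0.48 ± 0.06 was not called (adjusted p = 0.0887, with 15.5% of features called lower).

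With LPS+IFG the replicates of Txnip at 1 h were -2.22, -2.06 and -2.46. No gene had a lower mean than its -2.25 ± 0.20 (n = 3), a fall by a factor of 4.75 (limma, adjusted p = 1.3e-10), and the next gene, Agfg2, stood at -1.52. At 2 h they were -1.33, -1.78 and -1.63 (mean -1.58 ± 0.23, adjusted p = 1.68e-07). At 4 h they were -0.73, -0.94 and -0.86, all above every replicate of the earlier times. The mean at 4 h, -0.84 ± 0.11, was still called lower (adjusted p = 0.0013), though not with the spread of all arrays made equal (-0.65, adjusted p = 0.0566) or with the GenBank probe of Txnip alone (-0.83, adjusted p = 0.0629). The shares of all features called lower were 2.96% at 1 h, 10.6% at 2 h and 18.5% at 4 h of LPS+IFG.

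With LPS+2MA the replicates at 1 h were -2.40, -2.44 and -2.43, the tightest values of Txnip in any condition. Their mean of -2.42 ± 0.02 (n = 3), a fall by a factor of 5.37, was again the lowest of all genes (limma, adjusted p = 2.77e-11), ahead of Sfi1 at -1.62. At 2 h the replicates were -1.41, -2.39 and -1.27 (mean -1.69 ± 0.61, adjusted p = 5.91e-08), with the second far below the others. At 4 h they were -0.11, -0.89 and -0.12, and the mean of -0.37 ± 0.45 was not called (adjusted p = 0.193). Features called lower made up 1.92%, 8.81% and 18.1% of all features at 1, 2 and 4 h of LPS+2MA. Where LPS and the combinations shared untreated RNA, the low values at 1 h of the combinations are not independent of the value that chose the gene.

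With IFG or 2MA alone Txnip did not pass the test at any time. With IFG the replicates were -0.40, 0.19 and -0.29 at 1 h, 0.26, -0.15 and 0.58 at 2 h, and 0.02, -0.30 and -0.25 at 4 h. They lay on both sides of 0 at each time, and no mean was called (means -0.17, 0.23 and -0.18, adjusted p = 1, 0.983 and 0.724). The first replicate at 1 h, -0.40, rests on the GenBank probe alone. With a replicate kept when only 1 of its arrays had a value, the mean at 1 h was -0.03. Features called lower with IFG were 0.103%, 0.586% and 5.68% of all at 1, 2 and 4 h.

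With 2MA at 1 h the replicates of Txnip spread from -1.52 through -0.78 to 0.08 (mean -0.74 ± 0.80, adjusted p = 0.0693), the widest spread of the gene in any condition. Its probes disagreed there: the RefSeq probe read -0.61, 0.01 and -0.48, and the GenBank probe read -2.43, 0.16 and -1.07 in the same replicates. Without the second replicate the mean was -1.15 and was called lower (adjusted p = 0.00316). At 2 h the replicates were 0.19, 0.21 and 0.67, and at 4 h 0.30, 0.16 and 0.35, all above 0, with means of 0.36 ± 0.27 and 0.27 ± 0.10 that were not called (adjusted p = 0.808 and 0.799). Features called lower with 2MA were 0.552%, 0.25% and 0.534% of all at 1, 2 and 4 h. In all, Txnip was called lower in 6 of the 14 conditions tested.

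**Figure D2:**
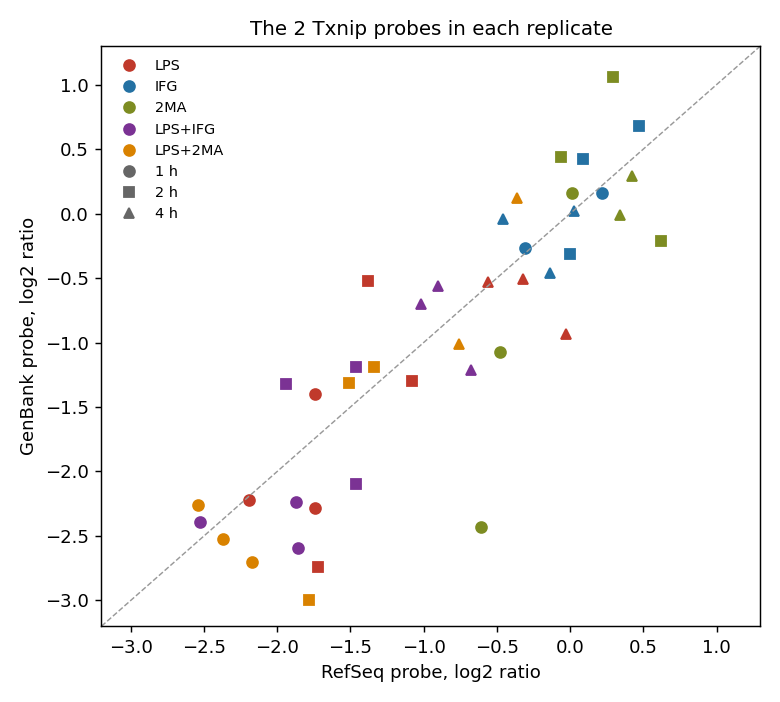
Log2 ratios of the GenBank probe of Txnip (y axis) against its RefSeq probe (x axis) in the 42 replicates with both; colours are treatments and symbols hours, and the dashed line marks equal values. The probes differed by less than 1 in 39 of 42 replicates and by up to 1.82 at 1 h of 2MA.

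The return of Txnip toward the untreated level was tested between times within a treatment. With LPS+2MA the ratio was higher at 4 h than at 1 h by 2.05 (SE 0.30, 95% interval 1.45 to 2.65, limma adjusted p = 1.46e-06) and higher at 4 h than at 2 h by 1.31 (SE 0.30, adjusted p = 0.0023). With LPS+IFG it was higher at 4 h than at 1 h by 1.40 (SE 0.30, 95% interval 0.80 to 2.0, adjusted p = 0.000467). These 3 comparisons called 17.9%, 8.07% and 18.0% of all features in either direction. With LPS alone the rise from 2 h to 4 h was 0.98 (SE 0.30, adjusted p = 0.0369, with 6.5% of features called). That call ended in 4 of 6 fits that left out 1 replicate, and without the third replicate at 2 h the rise was 0.59 (adjusted p = 0.376). It ended as well with equal array spread (1.19, adjusted p = 0.0592), in Cy5 alone (0.93, adjusted p = 0.113), in Cy3 alone (1.03, adjusted p = 0.0584) and with these conditions fitted alone (adjusted p = 0.0952). With the GenBank probe alone it ended too (0.86, adjusted p = 0.427), as did the rise from 2 h to 4 h of LPS+2MA (1.39, adjusted p = 0.126). The rise from 1 h to 4 h of LPS alone, 1.45, holds the value that chose the gene and was not tested. In all, 4 of 13 tested comparisons between times were called for Txnip. Neither step with LPS+IFG was, at 0.67 from 1 h to 2 h and 0.74 from 2 h to 4 h (limma adjusted p = 0.257 and 0.154). Nor was the step from 1 h to 2 h of LPS+2MA (0.74, adjusted p = 0.268). With 2MA alone the rise from 1 h to 4 h was 1.01 and was not called (adjusted p = 0.192).

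Arrdc2 RNA was also lower with LPS, but its ratios were farthest below 0 at 4 h. The replicates at 1 h of LPS were -0.71, -0.50 and -0.92 (mean -0.71 ± 0.21, n = 3), given with no test because that contrast chose the list. At 2 h they were -0.92, -1.07 and -0.95 (mean -0.98 ± 0.08, limma adjusted p = 1.68e-06), and at 4 h -1.78, -1.30 and -1.51 (mean -1.53 ± 0.24, adjusted p = 3.53e-11), or 34.6% of the untreated level. All 3 replicates at 4 h lay below every replicate at the earlier times. Arrdc2 ranked 17 from the lowest of the genes at 4 h of LPS.

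With LPS+IFG the replicates of Arrdc2 were -0.78, -0.61 and -1.18 at 1 h, -1.74, -0.80 and -1.18 at 2 h, and -2.06, -1.11 and -1.56 at 4 h. The times overlap, and the second replicate was the highest at each. All 3 means, -0.85 ± 0.29, -1.24 ± 0.47 and -1.58 ± 0.48, were called lower (limma, adjusted p = 2.39e-05, 6.82e-09 and 1.13e-11). With LPS+2MA they were -0.44, -0.55 and -1.07 at 1 h, -1.05, -0.90 and -0.91 at 2 h, and -1.50, -1.28 and -1.47 at 4 h, where all lay below the earlier replicates. These means, -0.69 ± 0.34, -0.95 ± 0.08 and -1.42 ± 0.12, were called lower as well (adjusted p = 0.000902, 2.04e-06 and 1.57e-10). The call at 1 h of LPS+2MA ended without the third replicate (-0.49, adjusted p = 0.104).

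With IFG alone Arrdc2 passed the test at 4 h. The replicates were -0.15, -0.15 and -0.41 at 1 h, -0.44, -0.55 and -0.41 at 2 h, and -0.77, -0.30 and -0.72 at 4 h, so all 9 lay below 0. The mean at 4 h, -0.59 ± 0.26, was called (limma, adjusted p = 0.00238), and those at 1 h (-0.23, adjusted p = 1) and 2 h (-0.46, adjusted p = 0.0615) were not. Without the first replicate the 4 h value was -0.51 and was not called (adjusted p = 0.063). With 2MA the replicates of Arrdc2 stayed near 0: -0.25 and -0.18 at 1 h, where the second replicate had no value, -0.07, 0.06 and 0.29 at 2 h, and 0.11, -0.04 and -0.09 at 4 h. None of these means (-0.22, 0.09 and -0.01) was called. Arrdc2 was thus called lower in 9 of the 14 conditions tested. In those conditions the share of all features called lower ran from 1.92% (1 h of LPS+2MA) to 18.5% (4 h of LPS+IFG).

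From 1 h to 4 h the log2 ratio of Arrdc2 fell by 0.72 under LPS+IFG (SE 0.20, limma adjusted p = 0.00733) and by 0.73 under LPS+2MA (SE 0.20, adjusted p = 0.00627). These comparisons called 18.0% and 17.9% of all features in either direction. The difference with LPS alone, -0.82, holds a value of the contrast that chose the list and was not tested. The direction was kept but both calls ended when the spread of every array was made equal, which left falls of 0.41 and 0.45 (adjusted p = 0.401 and 0.322), and 0.36 with LPS alone. The spread itself grew between these times: the median absolute log2 ratio of an array averaged 0.221 at 1 h and 0.312 at 4 h of LPS. It went from 0.252 to 0.328 under LPS+IFG and from 0.225 to 0.301 under LPS+2MA. Its part in the fall of Arrdc2 was not tested beyond that scaling. With LPS+IFG the call also ended without the second replicate at 1 h (-0.60, adjusted p = 0.064), without the first at 4 h (-0.48, adjusted p = 0.136) and in Cy5 alone (-0.54, adjusted p = 0.121), and with these conditions fitted alone its adjusted p was 0.0604. With LPS+2MA it ended without the first replicate at 1 h (-0.61, adjusted p = 0.0559). From 2 h to 4 h the differences of Arrdc2 were -0.55 with LPS, -0.34 with LPS+IFG and -0.47 with LPS+2MA. None of these was called (limma adjusted p = 0.0976, 0.442 and 0.167). The 90-array fit with a dye term called those with LPS (limma adjusted p = 0.0163) and LPS+2MA (0.0488).

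The orientation of the dyes mattered for Arrdc2. Its mean ratio was lower with treated RNA in Cy5 than in Cy3 in 15 of 15 conditions, by 0.29 to 0.67 (mean difference -0.53). At 4 h of LPS it read -1.80 in Cy5 and -1.26 in Cy3, and at 1 h of IFG -0.56 and 0.09. In the Cy3 arrays alone, 1 h of LPS+2MA (-0.38, limma adjusted p = 0.14) and 4 h of IFG (-0.32, adjusted p = 0.151) were not called. Arrdc1 also read lower in Cy5 in 15 of 15 conditions, with differences from -0.48 to -0.03 (mean difference -0.33). Txnip differed less between orientations, by -0.09 on average and within -0.30 to 0.15.

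**Figure D3:**
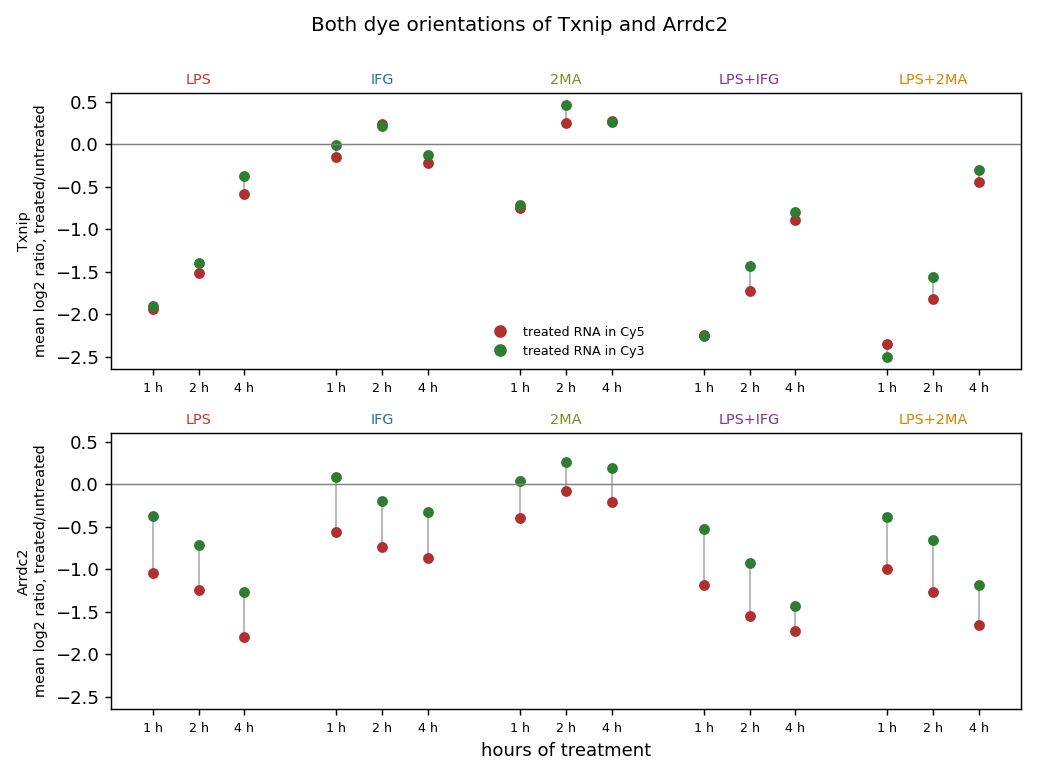
Mean log2 ratios of Txnip (top) and Arrdc2 (bottom) for each dye of the treated RNA, by treatment and hours; grey lines join both means of a condition. For Arrdc2 the Cy5 mean is the lower one in 15 of 15 conditions, and for Txnip the means lie close together.

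Arrdc1 RNA did not pass the test in any condition. Its means ran from -0.28 to 0.13 over the 14 conditions tested, with a smallest adjusted p of 0.323 by limma, and none had an unadjusted p under 0.05. With LPS the replicates were -0.25, 0.03 and 0.08 at 1 h, 0.01, -0.31 and -0.27 at 2 h, and -0.26, -0.74 and 0.25 at 4 h, spanning 0 at each time. At 4 h of LPS+IFG, its lowest mean, they were -0.25, -0.72 and 0.14 (-0.28 ± 0.43, n = 3). The second replicate was the lowest in 5 of 5 treatments at 2 h and again at 4 h, so replicates of a number moved together across treatments at these times. At 1 h the first was the lowest in 3 of 5 treatments and the second in 2. In the fit with the replicate block, 2 of the 14 conditions were called lower, 4 h of LPS (-0.25, adjusted p = 0.0295) and 4 h of LPS+IFG (-0.28, adjusted p = 0.0141).

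Adding IFG or 2MA to LPS did not change Txnip, Arrdc2 or Arrdc1 by a called amount at 2 h or 4 h. For Txnip, LPS+IFG less LPS was -0.12 at 2 h (SE 0.30, 95% interval -0.72 to 0.48) and -0.37 at 4 h (-0.96 to 0.23), and LPS+2MA less LPS was -0.23 (-0.83 to 0.37) and 0.11 (-0.49 to 0.71). For Arrdc2 these differences were -0.26 (SE 0.20, -0.66 to 0.14), -0.05 (-0.45 to 0.35), 0.02 (-0.38 to 0.42) and 0.11 (-0.29 to 0.51). No unadjusted p of these was under 0.05 either, and limma called 2.53%, 3.86%, 0.0603% and 0.319% of all features in these 4 comparisons in either direction. The intervals come from the fit of condition means, which does not pair replicates by number, and still allow differences of up to 0.96 for Txnip. At 4 h each LPS+IFG replicate of Txnip lay below the LPS replicate of its number, while at 2 h the third did not. At 1 h, where the contrast that chose the list enters, the differences from LPS were -0.32 for LPS+IFG and -0.50 for LPS+2MA in Txnip, and -0.15 and 0.02 in Arrdc2, with no test. Nor did a combination depart from the sum of its single treatments by a called amount: 0 of 4 such comparisons at 2 h and 4 h were called by limma for each of Txnip, Arrdc2 and Arrdc1. Of these, 1 had an unadjusted p under 0.05, that of Arrdc2 at 4 h of LPS+IFG (0.55, SE 0.24, adjusted p = 0.423).

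**Figure D4:**
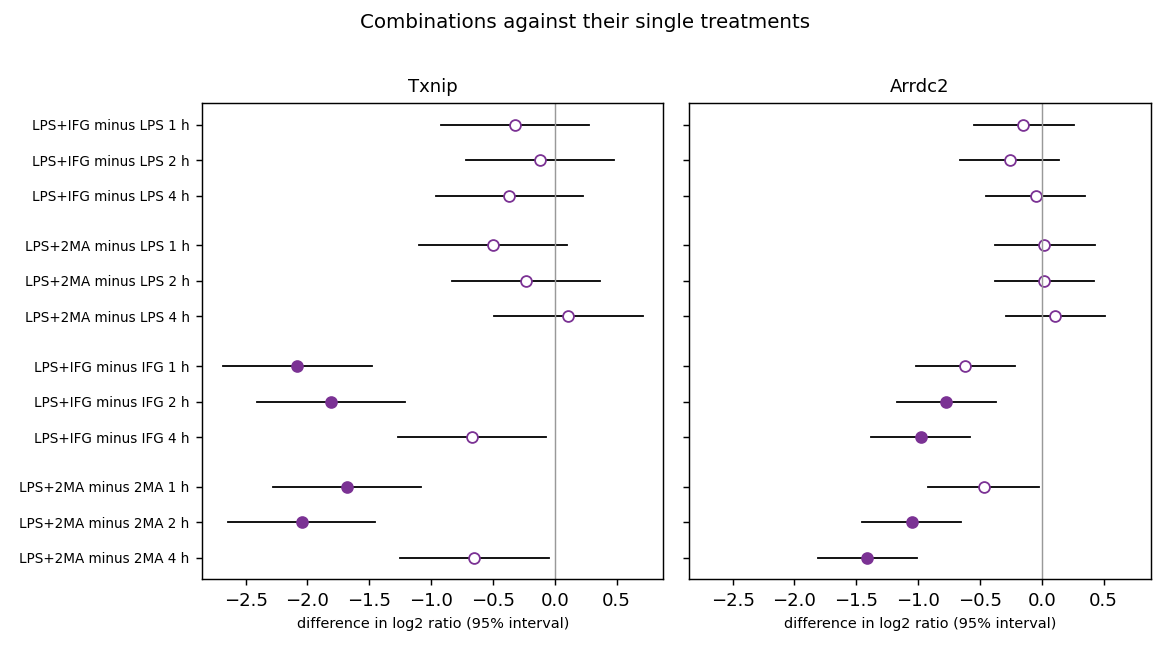
Differences in log2 ratio between each combination and its single treatments for Txnip (left) and Arrdc2 (right), with 95% intervals (x axis); filled points have an adjusted p under 0.05 by limma. Open points include the comparisons with 1 h of LPS, which were not tested. The combinations lie near 0 against LPS and below 0 against IFG or 2MA alone.

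Against IFG or 2MA alone the combinations were lower. For Txnip, LPS+IFG less IFG was -2.08 at 1 h and -1.81 at 2 h (SE 0.30, limma adjusted p = 7.01e-06 and 3.72e-05). LPS+2MA less 2MA was -1.68 at 1 h and -2.04 at 2 h (SE 0.30, adjusted p = 0.00036 and 5.71e-06). At 4 h neither difference was called, at -0.67 (adjusted p = 0.175) and -0.65 (adjusted p = 0.149). That from IFG was called in the 90-array fit with a dye term (limma adjusted p = 0.0346) and with these conditions fitted alone (0.0193). With the RefSeq probe alone both were called at 4 h (-0.67 from IFG, adjusted p = 0.0382, and -0.76 from 2MA, adjusted p = 0.00974). The call against 2MA at 1 h ended with the GenBank probe alone (-1.37, adjusted p = 0.3).

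For Arrdc2 the differences were farthest below 0 at 4 h, where those of Txnip were nearest to 0. LPS+IFG less IFG was -0.62 at 1 h (adjusted p = 0.115), -0.77 at 2 h (adjusted p = 0.00877) and -0.98 at 4 h (adjusted p = 0.000566), with SE 0.20 in limma's fit. LPS+2MA less 2MA was -0.47 (adjusted p = 0.746), -1.05 (adjusted p = 0.000427) and -1.41 (adjusted p = 9.52e-07). With the spread of arrays made equal, the calls against IFG ended at 2 h (-0.61, adjusted p = 0.218) and 4 h (-0.65, adjusted p = 0.195), and without the first LPS+IFG replicate the difference at 2 h was -0.52 (adjusted p = 0.164). With these conditions fitted alone, that at 2 h had an adjusted p of 0.0808. The difference from IFG at 1 h was called with the replicate block (limma adjusted p = 0.0113) and in the 90-array fit with a dye term (0.0106). The shares of features called lower at 1, 2 and 4 h were 0.681%, 3.69% and 4.88% against IFG, and 0.172%, 1.79% and 8.57% against 2MA.

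LPS alone was set against the other single treatments in the same way. At 2 h Txnip was lower with LPS than with IFG (-1.68, SE 0.30, limma adjusted p = 0.000103) and than with 2MA (-1.81, adjusted p = 4.84e-05). At 4 h neither difference was called (-0.30 and -0.75, adjusted p = 0.739 and 0.09), although that with 2MA was with the replicate block (adjusted p = 0.0305), in the 90-array fit with a dye term (0.0115), with these conditions fitted alone (0.00594) and with the RefSeq probe alone (-0.65, adjusted p = 0.0362). Arrdc2 was lower with LPS than with 2MA at 2 h (-1.07, SE 0.20, adjusted p = 0.000373) and 4 h (-1.52, adjusted p = 3.24e-07), and lower than with IFG at 4 h (-0.94, adjusted p = 0.00102). That last call ended with the spread of arrays made equal (-0.66, adjusted p = 0.155). At 2 h LPS less IFG was -0.51 for Arrdc2 and was not called (adjusted p = 0.134), but was with the replicate block (adjusted p = 0.0213), in the 90-array fit with a dye term (0.0283) and with these conditions fitted alone (0.0442). Features called lower were 3.22% and 4.42% of all against IFG at 2 and 4 h, and 1.84% and 7.15% against 2MA. These comparisons share LPS replicates and possibly untreated RNA.

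Other genes were ranked by how alike their means over the 15 conditions were to those of Txnip, as a description over points that may share untreated RNA and that include the value which chose Txnip. Of 9757 genes outside the list, Napb, an NSF attachment protein of vesicle fusion, had the highest Pearson r (0.91 over 15 means, 0.81 over 45 replicates), followed by Serpinb9g (0.91 and 0.74), Tmem192 (0.89 and 0.57), Senp8 (0.88 and 0.78) and Pnrc2 (0.87 and 0.68). Napb stood at -0.92, -0.78 and -0.33 at 1, 2 and 4 h of LPS. The most opposed were Ifrd1 (-0.93 and -0.81), Tmem88 (-0.92 and -0.80), Rela, the NF-kappaB subunit p65 (-0.92 and -0.79), Brd2 (-0.91 and -0.82) and Iws1 (-0.91 and -0.81). Ifrd1 stood at 2.10, 1.72 and 0.91 at those times. Without 1 h of LPS these genes kept their ranks, with r of 0.91 to 0.88 over 14 means for the alike and -0.92 to -0.90 for the opposed. Within the family, Arrdc2 had an r of 0.39 with Txnip over the 15 means and 0.32 over the 45 replicates, and Arrdc1 0.32 and 0.25.

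**Figure D5:**
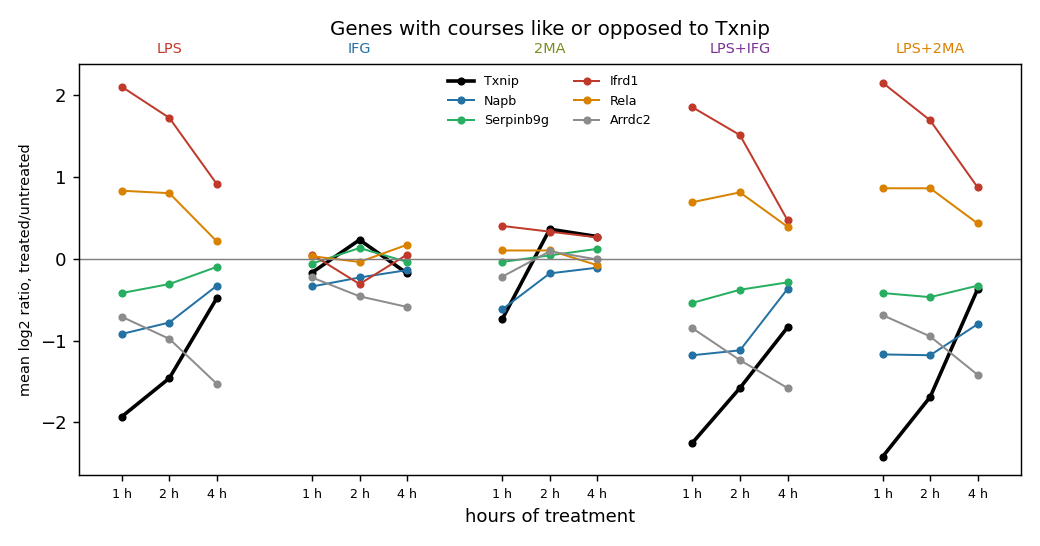
Mean log2 ratios of Txnip, of Napb and Serpinb9g, whose courses were most like it, of the opposed Ifrd1 and Rela, and of Arrdc2, by treatment and hours. Txnip and Napb rise from 1 h to 4 h of LPS while Ifrd1 falls, and Arrdc2 moves farther below 0 there.

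Genes of the pathways around these proteins were counted in 3 lists. Of the thioredoxin and peroxiredoxin system, 14 of 21 genes were measured, not among them Txn1. At 2 h of LPS 3 rose and 1 fell, beside 7.59% of all features called higher and 7.79% called lower: Txnrd1, thioredoxin reductase (0.67 ± 0.03, limma adjusted p = 1.89e-05), Srxn1, sulfiredoxin (1.01 ± 0.51, adjusted p = 0.0012), and Glrx, glutaredoxin (0.63 ± 0.49, adjusted p = 0.00276), rose, and Glrx2 fell (-0.34 ± 0.27, adjusted p = 0.0188; n = 3 each). At 4 h of LPS 2 rose, Glrx (1.88 ± 0.57) and Txnrd1 (0.56 ± 0.07), and 0 fell, beside 12.5% of all features called higher and 15.5% called lower. The medians of the list, -0.06 and 0.00, lay near those of all features, -0.01 and 0.00.

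Of the genes of glucose sensing, uptake and first glycolytic steps, 14 of 20 were measured. At 4 h of LPS 3 rose and 4 fell, beside 12.5% of all features called higher and 15.5% lower, with a median of -0.02 beside 0.00. Mxd1 (2.65 ± 0.36, limma adjusted p = 1.22e-15) and Max (0.82 ± 0.09, n = 2, limma adjusted p = 9.38e-05), dimer partners in the Myc and Mlx network, rose. Mxi1, a relative of Mxd1 (-0.95 ± 0.40, adjusted p = 2.41e-07), and Slc2a8, a glucose transporter (-0.54 ± 0.12, adjusted p = 7.4e-07), fell. At 2 h of LPS 1 rose and 4 fell, beside 7.59% and 7.79%, with a median of -0.25 beside -0.01 for all features. Slc2a1, the main glucose transporter of many cells, was the gene that rose (0.83 ± 0.31, n = 3, limma adjusted p = 0.000298). Slc2a8 (-0.31 ± 0.20, adjusted p = 0.00447), Pfkfb3, which makes an activator of glycolysis (-0.65 ± 0.46, adjusted p = 0.00797), and Mnt, a further Max partner (-0.50 ± 0.38, adjusted p = 0.0108), were among those that fell.

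Of the beta-arrestins, Nedd4-type ligases and sorting adaptors, 15 of 24 were measured, neither beta-arrestin among them. At 2 h of LPS 0 rose and 2 fell, beside 7.59% and 7.79% of all features, and at 4 h 2 rose and 1 fell, beside 12.5% and 15.5%. Most calls came at 4 h of LPS+IFG, where 4 rose and 3 fell, with a median of 0.04 beside -0.01 for all features, of which 14.9% were called higher and 18.5% lower. Stam2, an endosomal sorting adaptor (0.62 ± 0.26, limma adjusted p = 5.36e-06), and Wwp2, a Nedd4-type ligase (0.38 ± 0.16, adjusted p = 0.000194), rose, and Tom1, an endosomal adaptor (-0.60 ± 0.27, adjusted p = 1.3e-06), and Ndfip1, an activator of Nedd4-type ligases (-0.39 ± 0.32, adjusted p = 0.0004), fell.

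Over the whole series, depth is unknown, since the arrays were deposited as ratios only. Exact zeros, taken as missing, made up 7.84 to 17.0% of an array. The RefSeq probe of Txnip had values on 89 of 90 arrays, its GenBank probe on 87, that of Arrdc2 on 89 and that of Arrdc1 on 90. The first replicates of Txnip at 4 h of 2MA and of LPS+2MA rest on the RefSeq probe alone. Ratios give no level, so the cell line could not be checked against its markers: of 7 measured macrophage markers, Cd68, Csf1r, Adgre1 and Spi1 had a value on 100.0% of arrays, Tyrobp on 93.9%, Fcer1g on 52.2% and Lyz2 on 3.3%, and the T cell genes Cd3g and Cd3e had one on 100.0% and 97.8%.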

How the data were processed

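Per the labels, RNA of treated and time-matched untreated RAW 264.7 cells was hybridized to custom Agilent oligonucleotide arrays, with dyes swapped in each of 3 numbered sets. The values deposited by the authors are log2 ratios of both channels of an array, which follows from their range (highest 6.64, array medians of 0). Image reading, background handling, normalization and the ratio's direction are not given in the sources used here. An exact zero was read as a missing value (753 of 16281 probes held nothing else). Signs were turned on arrays with treated RNA in Cy3. After turning, the dye-swapped arrays of a set correlated above 0 across probes in 37 of 45 pairs, and in 45 of 45 with each probe's mean removed.

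A replicate was the mean of a dye-swapped pair with values on both arrays. Probes with at least 2 replicate values in every condition were kept (13711), and probes of a gene were averaged, giving 11600 features: 9760 genes and 1840 probes without a gene name. Of 13790 probes with an annotation entry, 13738 named 1 gene. Condition means were fitted to all 45 replicates with limma 3.58.1 in R 4.3.3 (lmFit and eBayes), with 57 comparisons and two-sided p-values adjusted by Benjamini and Hochberg over all features. The fit was tested on simulated data with independent replicates, which leave out the correlation between same-numbered sets given below. Intervals are 95%. Python 3.11.15 with pandas 2.3.3, scipy 1.17.1 and matplotlib 3.10.9 did the rest. The number of replicates, 3 in a condition, limits the precision.

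Named genes were the members, the 5 genes most like and the 5 most unlike Txnip, and up to 4 genes of a list with the smallest adjusted p in a condition described. Sfi1, Cnr2 and Agfg2, the genes next to Txnip in rank, and Txn1 were added after their values were seen. The members and lists were chosen with earlier results of these data known. Alternatives were zeros kept, equal array spread, all 90 arrays with a dye term, either dye alone, a replicate block, fewer conditions, other filters, single probes and a 2-fold minimum. Deviations of same-numbered sets at a time correlated above 0.1 in 86 of 90 pairs of treatments (median 0.433). The same held in 18 of 18 pairs of LPS with a combination. From this hint in the data and not from the labels, the numbers were taken to pair samples for the combinations against LPS. The pairing entered only the fit with the replicate block. The main fit of condition means, with its SE, intervals and p-values, leaves it out.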

Additional observations from a re-analysis of the deposited data

Results flagged for a closer look

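The ratios of 2 genes differed between times of a treatment by limma's test of that difference. Txnip was higher at 4 h than at 1 h by 1.40 with LPS+IFG and by 2.05 with LPS+2MA. It was higher at 4 h than at 2 h by 0.98 with LPS and by 1.31 with LPS+2MA. In that order, these comparisons called 18.0%, 17.9%, 6.5% and 8.07% of all features in either direction. The call with LPS ended in 4 of 6 fits that left out 1 replicate. Both calls between 2 h and 4 h ended with the GenBank probe alone. Arrdc2 was lower at 4 h than at 1 h, with differences of -0.72 with LPS+IFG and -0.73 with LPS+2MA, neither of them called with the array spread made equal. With 3 replicates in a group, single samples were not tested as outliers.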

How the results depend on the processing

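The limits are 3 replicates in a condition and, for Arrdc1 and Arrdc2, a single probe each. With the array spread made equal, Txnip was -2.37 at 1 h of LPS, -0.65 at 4 h of LPS+IFG (no longer called) and 1.98 higher at 4 h than at 1 h of LPS, and the changes of Arrdc2 from 1 h to 4 h were -0.41 and -0.45 with LPS+IFG and LPS+2MA, not called, and -0.36 with LPS. The fit with the replicate block added calls for Txnip at 4 h of LPS (-0.48) and 1 h of 2MA (-0.74), for Arrdc2 at 2 h of IFG (-0.46) and for Arrdc1 in 2 conditions against 0 (-0.25 at 4 h of LPS, -0.28 at 4 h of LPS+IFG). With this block no combination differed from LPS by a called amount for a member. A fit to all 90 arrays singly, with a dye term and the pairs' estimated correlation, added those calls of Txnip and Arrdc2. Fitting the compared conditions alone added those of Txnip at 4 h of LPS and Arrdc2 at 2 h of IFG. It lost the main fit's call of Arrdc2 between 1 h and 4 h of LPS+IFG (-0.72). In Cy5 alone, Txnip at 4 h of LPS (-0.58) and 1 h of 2MA (-0.76) and Arrdc2 at 1 h (-0.56) and 2 h of IFG (-0.74) were called, Arrdc2 was -1.04 at 1 h of LPS, and its change from 1 h to 4 h of LPS+IFG (-0.54) was not. In Cy3 alone, Arrdc2 was -0.37 at 1 h of LPS and lost its calls at 4 h of IFG (-0.32) and 1 h of LPS+2MA (-0.38), and the untested Arrdc1 value at 1 h of LPS was 0.11. The GenBank probe alone lost Txnip at 4 h of LPS+IFG (-0.83), and the RefSeq probe alone called it at 4 h of LPS+2MA (-0.41). A 2-fold minimum left 4 called conditions for Arrdc2 (without -0.98, -0.59, -0.85, -0.69 and -0.95) and removed Txnip at 4 h of LPS+IFG (-0.84). Leaving out 1 replicate gave ranges of -1.15 to -0.35 for Txnip at 1 h of 2MA, for Arrdc1 -0.11 to 0.05 at 1 h of LPS and -0.45 to 0.04 between 1 h and 4 h, neither tested, and for Arrdc2 -0.74 to -0.51 at 4 h of IFG, -0.81 to -0.49 at 1 h of LPS+2MA, -0.96 to -0.48 between 1 h and 4 h of LPS+IFG and -0.93 to -0.61 with LPS+2MA. The causes were not tested.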
